A study of Mus musculus with 6 samples.

Results

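Passage from the G1 phase of the cell cycle into DNA synthesis was followed in calvarial RNA through 10 genes: the D-type cyclins Ccnd1, Ccnd2 and Ccnd3, their kinases Cdk4 and Cdk6, the E-type cyclins Ccne1 and Ccne2, their kinase Cdk2, and the transcription factors E2f3 and E2f5. The genes were taken by name, and every probe whose platform symbol was one of them was used, which gave 23 of the 45281 probes on the array; the platform annotation names 19057 genes in all. Of these probes 21 were tested, at least 1 for each gene, and 20 were detected on all 6 arrays. RNA came from the calvaria (the bones of the skull vault) of FVB/N mice, taken on postnatal day 3. The 2 groups were 3 wild-type samples (WT) and 3 samples overexpressing the microRNA miR-34c (TG), each on 1 Illumina bead array with biotin-labelled total RNA. The series title places the gain of function in the osteoblast, but the promoter that drives it, whether a sample is 1 pup or a pool, and the sex are not stated in the labels, so p-values measure the spread between these samples. No probe named here reads miR-34c, and the arrays therefore do not check the overexpression itself.

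D-type cyclins are made in response to growth signals and activate Cdk4 and Cdk6, which phosphorylate the retinoblastoma protein and so release E2F factors. E2F factors then switch on genes of DNA replication and the E-type cyclins, whose partner Cdk2 completes the phosphorylation. The miR-34 family is induced by p53, and several of these genes, among them Ccnd1, Ccne2, Cdk4, Cdk6, E2f3 and E2f5, are reported targets through sites that pair with the microRNA seed. The comparison of TG with WT asks which transcripts differ when miR-34c is raised.

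The seed is the part of a microRNA (bases 2 to 8) that pairs with its targets, and it defines the family to which miR-34c belongs, so 5p arms of 4 other members of that family from RefSeq (mouse, GRCm38.p6) are shown with the seed in capitals. The 4 shown, which do not include miR-34c, carry the same seed.
mmu-miR-34a-5p: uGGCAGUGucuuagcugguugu
mmu-miR-34b-5p: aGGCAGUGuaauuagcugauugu
mmu-miR-449a-5p: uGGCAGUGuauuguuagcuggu
mmu-miR-449c-5p: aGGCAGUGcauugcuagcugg
These lie at chr4:150068473-150068494 (plus strand), chr9:51103610-51103632 (minus strand), chr13:113037549-113037570 and chr13:113036008-113036028 (both plus strand).

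Median intensity per array was 125.1 to 132.6, between 19680 and 21412 probes were detected (detection p under 0.05), and arrays of the same group correlated across probes at 0.982 to 0.989, against 0.980 to 0.989 between groups. All 10 osteoblast markers looked at were detected on every array, with 4 positive and 6 negative log2 fold changes (TG minus WT). The osteocalcin genes Bglap (-0.78) and Bglap2 (-0.71) had all TG arrays below all WT arrays, at unadjusted p of 0.00177 and 0.0104 and adjusted p of 0.9996 (limma). The TG group was not uniform. Xist RNA, made from the inactive X chromosome of female cells, was high on TG replicates 2 and 3 (normalised log2 intensities of 9.18 and 9.34), while TG replicate 1 had 4.70 and WT arrays had 4.49 to 5.12. Kdm5d, a Y-linked gene, ran the other way, with 4.69 and 4.43 on those 2 TG arrays and 6.99 to 7.36 elsewhere. The Y-linked Uty had 5.36 on TG replicate 1 and 5.14 on each of the others, all below the 5.73 to 6.08 of WT. By Xist and Kdm5d, TG replicates 2 and 3 stand apart from the other 4 arrays, so that TG replicate 1 is the single TG array to set beside WT within 1 pattern. Member values below that rest on those 2 arrays are also given without them.

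Over all 20632 probes tested, limma with Benjamini-Hochberg adjustment called none at an adjusted p under 0.05 (0% of probes; smallest adjusted p 0.9996), and 712 had an unadjusted p under 0.05. None of the 21 tested member probes passed, and all had an adjusted p of 0.9996. The values that follow are therefore measurements and not calls. Levels are normalised log2 intensities (background-corrected, quantile-normalised), and each log2 fold change is the TG mean minus the WT mean, given with its standard error (SE) from the fit. Of the member probes, 10 had positive and 11 negative log2 fold changes, with a median of -0.03, where 49.9% of all probes tested were negative and their median was 0.00. Represented by the brightest tested probe, 6 genes were positive and 4 negative (median 0.03), against 50.5% of all 11204 genes negative. The unadjusted p was under 0.05 for 1 member probe, against 3.45% of all probes, and the difference was at least 1.5-fold for 1, against 0.679% of all probes.

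**Figure D1:**
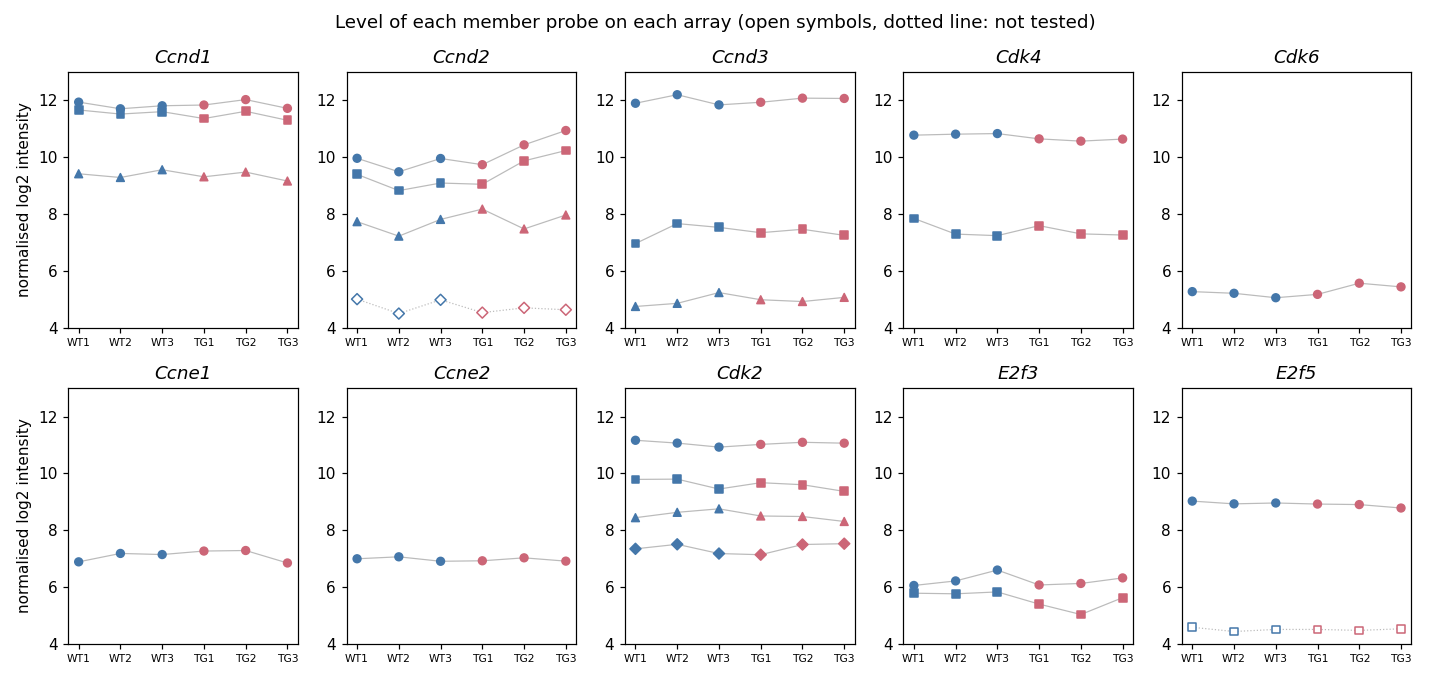
Normalised log2 intensity (vertical axis) of each of the 23 member probes on each of the 6 arrays (horizontal axis), 1 panel per gene; symbols mark the probes of a gene, lines only join values of 1 probe, and open symbols are the 2 probes not tested. The Ccnd2 panel shows its 2 brightest probes higher on TG replicates 2 and 3 (10.43 and 10.94 on the brightest) than on the other arrays, while the probes of most other members stay nearly level.

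Among the D-type cyclins, Ccnd2 had the widest spread of any member over the arrays. Its brightest probe had 9.96, 9.48 and 9.95 in WT and 9.73, 10.43 and 10.94 in TG. TG replicates 2 and 3 were above every other array and TG replicate 1 lay inside the WT range, so the groups overlapped. The means were 10.37 ± 0.60 in TG and 9.80 ± 0.27 in WT (SD, n = 3). The log2 fold change was 0.57 ± 0.29 (SE), with 95% limits of -0.10 and 1.24 (limma, unadjusted p = 0.0851, adjusted p = 0.9996). This is 1.48-fold, with an interval of 0.934-fold to 2.36-fold. The second probe, designed to the same transcript, had 9.39, 8.82 and 9.09 in WT and 9.04, 9.87 and 10.23 in TG, a log2 fold change of 0.61 ± 0.29 (SE). It repeated the order of the TG arrays and is not independent of the first. The third probe did not follow that order: it had 7.73, 7.22 and 7.81 in WT and 8.17, 7.47 and 7.96 in TG, with TG replicate 1 highest. The platform annotation assigns this probe, and another that was detected on only 1 array and not tested, to cDNA clone entries rather than to the RefSeq transcript.

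The brightest and second Ccnd2 probes follow the division of the TG group, and the third does not. With the Xist pattern as a covariate, or with the 4 low-Xist arrays alone, the log2 fold change of the brightest probe was -0.06 ± 0.28 (SE, with the covariate) and that of the second probe -0.06 ± 0.26, while the third had 0.59 ± 0.29. Without TG replicate 1 the brightest probe had 0.89 ± 0.22 (SE; limma, unadjusted p = 0.00472, adjusted p = 0.99998). That fit keeps only the 2 high-Xist TG arrays. Without TG replicate 3 the brightest probe had 0.29 ± 0.25. In the 4-array comparison TG is a single array, assumed to vary like the WT arrays. The covariate gives the same log2 fold changes by construction, so these settings are not separate checks. Genotype within the high-Xist pattern cannot be compared, since no WT array has it.

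Of 11203 other genes represented by their brightest probe, those whose profile was nearest to Ccnd2, by root mean square difference over the 6 arrays after centring, were Kdm6a (0.135), Rtn4rl1 (0.199), Resf1 (0.208), Luc7l3 (0.209) and Serinc5 (0.214, all in log2 units). Kdm6a is an X-linked histone demethylase gene known to escape X inactivation. It had 8.83, 8.46 and 8.71 in WT and 8.64, 9.43 and 9.54 in TG. Since it was chosen for its likeness to the brightest Ccnd2 probe, being high on the same 2 TG arrays follows from the choice. The Rtn4rl1 and Serinc5 probes were dim and were each detected on only 2 WT arrays.

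**Figure D2:**
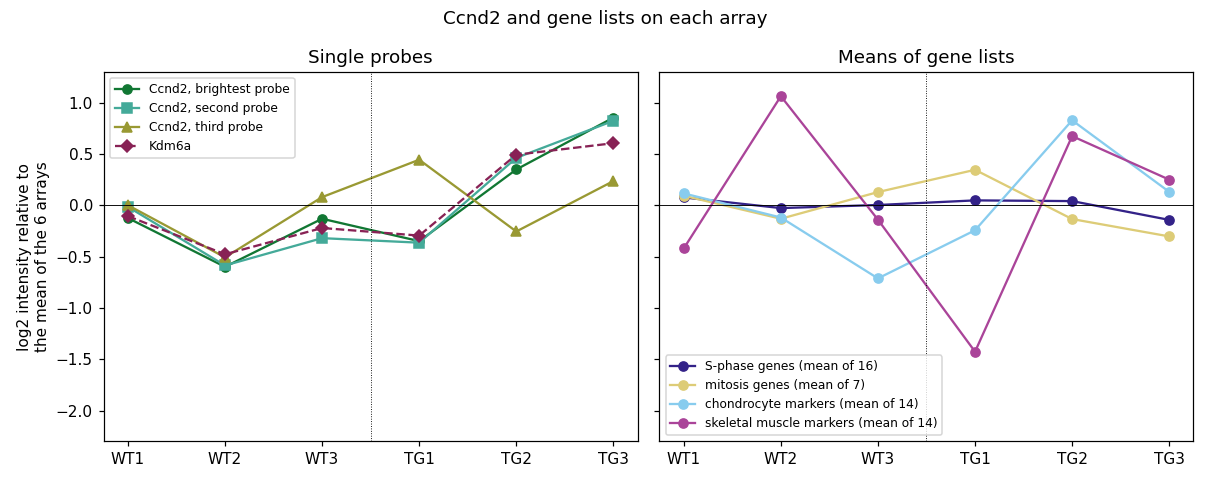
Log2 intensity relative to the mean of the 6 arrays (vertical axis) on each array (horizontal axis; the dotted line parts WT from TG), for the 3 tested Ccnd2 probes and Kdm6a (left) and for the means of 4 gene lists (right); lines only join values of 1 series. The 2 brightest Ccnd2 probes, and Kdm6a, chosen for its likeness to the brightest, are highest on TG replicates 2 and 3. The mean of the mitosis genes is lowest on TG replicate 3 (-0.30), and the third Ccnd2 probe is highest on TG replicate 1.

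Markers of tissues next to the bone also differed between those arrays, and their part in the Ccnd2 values was not tested. Of the chondrocyte markers, 13 of 14 tested had positive log2 fold changes, and their summed signal on the log2 scale ranged from 15.87 to 16.86 in WT and from 16.42 to 17.05 in TG, highest on TG replicate 2. Relative to all arrays, their mean was -0.24 on TG replicate 1, inside the WT values of 0.12, -0.12 and -0.71. On TG replicates 2 and 3 it was 0.83 and 0.13. Col10a1 had the widest range of these markers, with 4.72, 7.51 and 4.90 in WT and 4.74, 11.35 and 8.87 in TG. It was detected on 1 WT and 2 TG arrays and raises the means of TG replicates 2 and 3. The summed signal on TG replicate 3, 16.63, lay inside the WT range. Skeletal muscle markers had 13 of 14 negative, with sums of 16.26 to 17.49 in WT and 15.45 to 17.17 in TG, lowest on TG replicate 1. The neutrophil markers had 10 of 10 negative, with 12.54 to 13.05 in WT and 11.01 to 12.80 in TG, again lowest on TG replicate 1. Matn3 of the first list, Myh4 of the second and Mmp8 and Cebpe of the last were detected on too few arrays to be tested. Of the osteoclast markers 6 of 7 tested were negative, of the erythroid markers 3 of 4 and of the meningeal markers 3 of 6. In bulk tissue, fewer cells of a type and less RNA per cell cannot be told apart.

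Ccnd1 and Ccnd3 had nearly the same level in both groups. Ccnd1, a reported miR-34 target, had 11.94, 11.70 and 11.81 in WT and 11.83, 12.02 and 11.72 in TG on its brightest probe. The groups overlapped, with a log2 fold change of 0.04 ± 0.13 (SE), or 1.03-fold with a 95% interval of 0.835-fold to 1.27-fold. Its other probes had -0.17 ± 0.13, where the TG values were 11.36, 11.61 and 11.30 against 11.66, 11.51 and 11.60, and -0.10 ± 0.13. The sign of Ccnd1 thus depends on the probe, and none of the 3 intervals leaves out 0. Ccnd3 had 11.90, 12.20 and 11.84 in WT and 11.93, 12.08 and 12.06 in TG on its brightest probe, a log2 fold change of 0.05 ± 0.13. The other Ccnd3 probes had -0.03 ± 0.19 and 0.04 ± 0.15, and the latter was dim and detected on only 1 WT array.

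Among the kinases of the D-type cyclins, Cdk4 had lower normalised values on all 3 TG arrays. Its brightest probe had 10.77, 10.81 and 10.83 in WT against 10.64, 10.56 and 10.63 in TG, with no overlap and small spread in both groups (SD 0.03 and 0.04). The log2 fold change was -0.19 ± 0.11 (SE; 95% interval -0.44 to 0.06; limma, unadjusted p = 0.113), or 0.877-fold with an interval of 0.739-fold to 1.04-fold. In the authors' deposited values the same probe had -0.18 (limma, unadjusted p = 0.00587, adjusted p = 0.9998). Before normalisation the intensities were 1857, 2073 and 1739 in WT and 1742, 1504 and 1761 in TG, which overlap. Adjusted for the Xist pattern, it was -0.16 ± 0.16. The dimmer Cdk4 probe had 7.84, 7.29 and 7.24 in WT and 7.59, 7.30 and 7.26 in TG, a log2 fold change of -0.07 ± 0.19 with overlapping groups.

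Cdk6 was read by a single dim probe, detected on all 6 arrays at intensities of 131.5 to 152.7. It had 5.26, 5.21 and 5.05 in WT and 5.17, 5.56 and 5.43 in TG, with TG replicates 2 and 3 again highest and TG replicate 1 inside the WT range. The log2 fold change was 0.21 ± 0.14 (SE; 95% interval -0.11 to 0.54). On leaving out 1 array it was 0.13 (without TG replicate 2) to 0.32 (without TG replicate 1). It was -0.005 ± 0.18 with the Xist pattern as a covariate and 0.04 in the authors' deposited values, in which dim probes are compressed.

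The E-type cyclins and Cdk2 showed no difference larger than the spread between arrays. Ccne1 had 6.89, 7.18 and 7.14 in WT and 7.26, 7.28 and 6.85 in TG on its only probe, with a log2 fold change of 0.06 ± 0.16 (SE) and 95% limits of -0.31 and 0.43. The TG values enclose those of WT. Ccne2, a reported miR-34 target, had 6.99, 7.06 and 6.91 in WT and 6.92, 7.03 and 6.91 in TG, the narrowest spread among the brightest probes of the members. Its log2 fold change was -0.03 ± 0.11, or 0.977-fold with a 95% interval of 0.816-fold to 1.17-fold. Cdk2 had 11.16, 11.06 and 10.92 in WT and 11.02, 11.09 and 11.06 in TG on its brightest probe, a log2 fold change of 0.01 ± 0.12. Its other 3 probes, in order of level, had -0.13 ± 0.15, -0.18 ± 0.13 and 0.04 ± 0.15, each with overlapping groups.

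**Figure D3:**
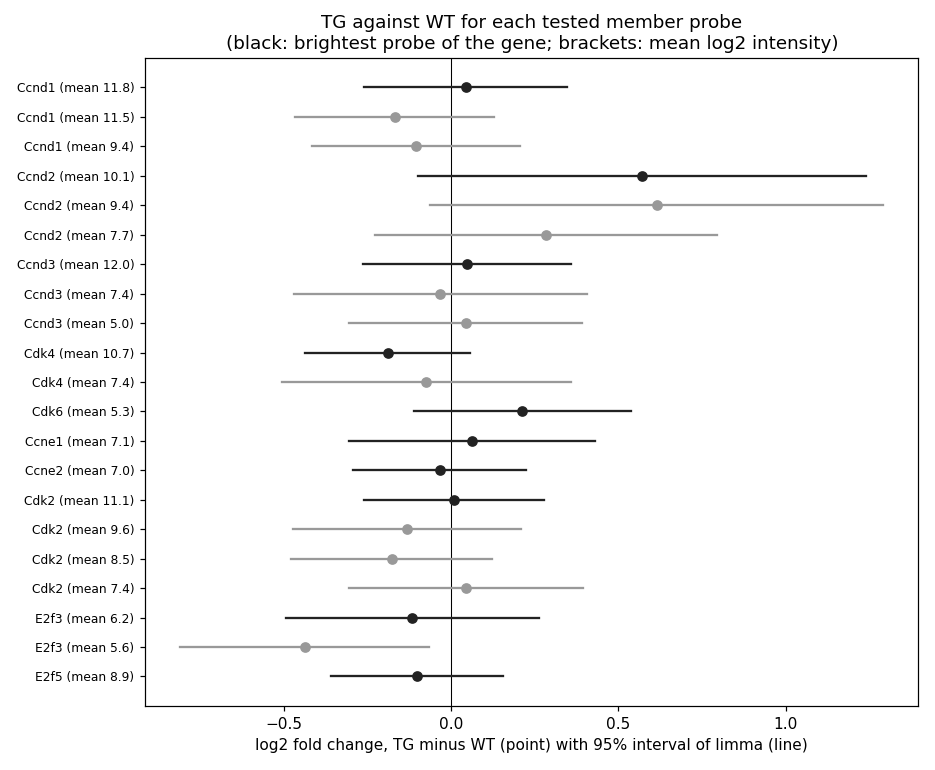
Log2 fold change, TG minus WT (horizontal axis; point), with the 95% interval of limma (line) for each of the 21 tested member probes (rows, with the mean log2 intensity in brackets); black marks the brightest probe of a gene. The intervals include 0 for every probe other than the dim E2f3 probe at -0.44, and they are widest for the 2 brightest Ccnd2 probes.

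Among the E2F factors, E2f3, an activator of replication genes, had the member probe with the smallest unadjusted p. This dim probe had 5.78, 5.76 and 5.83 in WT and 5.40, 5.03 and 5.62 in TG, with every TG array below every WT array. The log2 fold change was -0.44 ± 0.16 (SE; 95% interval -0.81 to -0.07; limma, unadjusted p = 0.0264, adjusted p = 0.9996). Its intensities before correction were 160.7, 166.8 and 152.8 in WT and 145.4, 133.7 and 159.4 in TG, close to the mean of the negative controls (117.2 to 122.95 on the 6 arrays). These overlap, and without background correction the log2 fold change was -0.14 ± 0.07. With the Xist pattern as a covariate it was -0.39 ± 0.24, and without TG replicate 2 it was -0.28 ± 0.14. The brighter E2f3 probe, assigned to the same transcript, had 6.05, 6.21 and 6.60 in WT and 6.07, 6.12 and 6.32 in TG. There the log2 fold change was also negative, at -0.12 ± 0.16, but the groups overlapped.

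E2f5, which acts mainly with the pocket proteins as a repressor, had 9.02, 8.93 and 8.96 in WT and 8.92, 8.90 and 8.78 in TG. The highest TG array lay just below the lowest WT array, and the log2 fold change was -0.10 ± 0.11 (SE; 95% interval -0.36 to 0.15), or 0.932-fold. Before normalisation its intensities were 539.9 to 646.4 in WT and 548.4 to 593 in TG, which overlap. The other E2f5 probe was not detected on any array and was not tested. In all, 3 member probes (Cdk4, E2f3 and E2f5) had every TG array below every WT array and 0 had every TG array above, where 3.93% and 3.62% of all probes did so. On intensities before normalisation the groups overlap for all 3. With 21 related probes the counts describe the members and are not a test of them.

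A motif bound by E2F factors was looked for in the RefSeq promoter windows of the members (GRCm38.p6; 250 bases before to 50 after the transcript start), spelled TTTCCCGC, TTTCGCGC, TTTGCCGC or TTTGGCGC on either strand. The table held 8 windows for 6 of the members, since E2f3 and Ccnd3 have 2 each. The motif was in 2 of the 8, the window of Cdk2 and 1 window of E2f3, a gene known to be under E2F control itself, against 2.26% of all 32851 windows. The other E2f3 window, at chr13:29984342-29984641, had no match. The matches are shown with the motif in capitals, in the gene's direction, where it reads as its reverse complement.
Cdk2, chr10:128705173-128705202, minus strand: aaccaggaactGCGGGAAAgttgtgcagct
E2f3, chr13:29986056-29986085, minus strand: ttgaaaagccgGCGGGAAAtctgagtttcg
The match lies 140 to 133 bases before the start in Cdk2 and 11 to 4 bases before it in E2f3. The Cdk2 and E2f3 values above differ in size, and the match describes the sequence only.

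Of the other genes of the pathway, by their brightest tested probes, 0 of 45 passed the adjusted threshold in either direction, against 0% of all probes. At an unadjusted p under 0.05 there were 0, against 3.45% of all probes. A dim Tyms probe, not the brightest of its gene, had 0.35 ± 0.12 (SE; limma, unadjusted p = 0.0217) and did not pass the adjusted threshold. It was detected on TG arrays only and was tested through that group alone. The other Tyms probes had 0.02 and -0.08. The CDK inhibitors, which hold G1 kinases in check, had 2 positive and 4 negative values among 6 tested (median -0.17). Cdkn1a, the p53-induced inhibitor p21, had 11.15, 11.15 and 11.14 in WT and 11.25, 11.33 and 11.21 in TG, a log2 fold change of 0.12 ± 0.11 (SE) without overlap. Its other probes had 0.11 and 0.17 with overlap. Before normalisation the brightest probe overlapped too, at 2132.3 to 2637.7 in WT and 2464.8 to 2602.3 in TG. E2f4 and Mcm4 likewise had every TG array above WT on their brightest probes, and Mcm7 every TG array below. Of all probes tested, 3.62% were so above and 3.93% so below. Cdkn2c, an inhibitor of Cdk4 and Cdk6, had -0.23 ± 0.19, and Cdkn2d, of the same family, had -0.18 ± 0.15. Both pocket proteins tested were negative, with Rb1, the retinoblastoma gene, at -0.21 ± 0.13 and -0.02 on its other probe, and Rbl1 at -0.19 ± 0.14 and, on its other probes, -0.08 and 0.06. Of the other E2F and DP genes 2 were positive and 5 negative (median -0.03). E2f2, an activator, had -0.23 ± 0.18, E2f4, a repressor, had 0.09 ± 0.11, and E2f7 had 0.09 ± 0.19 on a dim probe detected on 3 arrays.

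The S-phase genes that E2F factors are known to control had 4 positive and 12 negative values among 16 tested, all within -0.19 to 0.13 (median -0.05). Mcm7, a subunit of the replicative helicase, had -0.19 ± 0.12, with 0.15 on a dimmer probe, Orc1, of the origin recognition complex, had -0.19 ± 0.15, and Mcm4, another helicase subunit, had 0.12 ± 0.11. Genes that regulate the kinases had 5 positive and 2 negative (median 0.04), with Skp2, which targets CDK inhibitors for degradation, at 0.18 ± 0.14, Ccnh, a partner of the CDK-activating kinase, at 0.08 ± 0.12, and Myc at 0.18 ± 0.26. Mitosis genes had 3 positive and 4 negative (median -0.01), with Plk1, a mitotic kinase, at -0.25 ± 0.19, Cdc20 at -0.17 ± 0.19 and Top2a at -0.08 ± 0.17. The spread lay within the TG group: relative to all arrays, the mean of the mitosis genes was 0.35, -0.13 and -0.30 in TG and 0.09, -0.13 and 0.13 in WT. TG replicate 1 was highest and TG replicate 3 lowest, the reverse of their order on the 2 brightest Ccnd2 probes. On the third Ccnd2 probe TG replicate 1 was likewise highest.

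**Figure D4:**
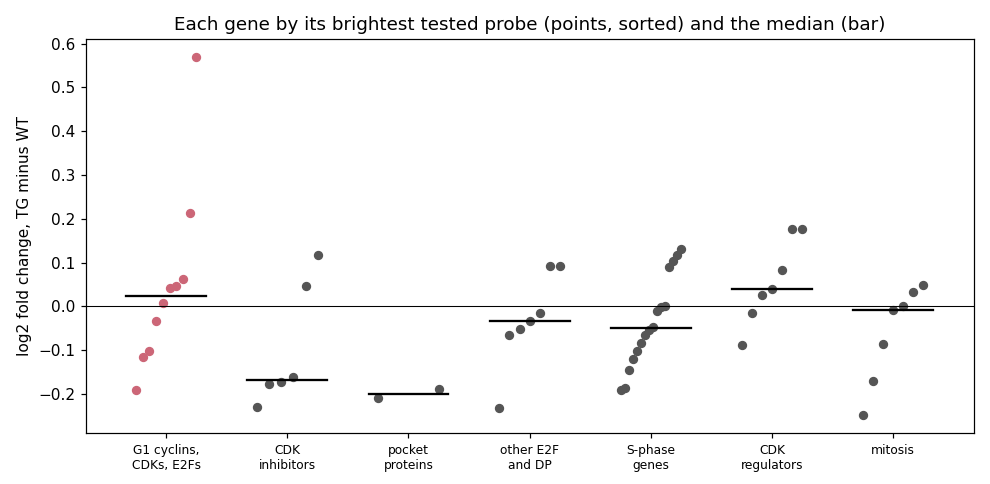
Log2 fold change, TG minus WT (vertical axis), of each gene by its brightest tested probe (points, sorted within a list) for the 10 members and 6 lists of other pathway genes (horizontal axis), with the median of each list as a bar. All points lie between -0.25 and 0.21 apart from Ccnd2 at 0.57.

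With the Xist pattern as a covariate, 14 of the 21 tested member probes kept their sign and 7 turned. The share of all probes that turned was not computed, so this count describes the members only. Those that turned were the 2 brightest Ccnd2 probes, the brightest Ccnd3 and Cdk2 probes, the dimmer Cdk4 probe, Cdk6 and the dimmest Cdk2 probe. Their values under the covariate were smaller than their SE, apart from the dimmest Cdk2 probe at -0.20 ± 0.19. The covariate fit compares TG replicate 1 with the 3 WT arrays, and its SE for the members ranged from 0.161 to 0.293. Within it Ccne1 had 0.20 ± 0.23 and E2f5 had -0.05 ± 0.17.

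**Figure D5:**
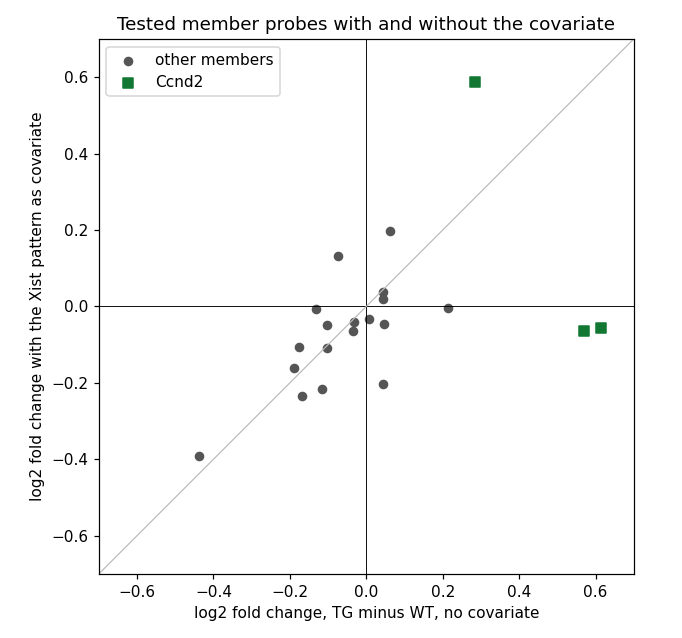
Log2 fold change, TG minus WT, of the 21 tested member probes without a covariate (horizontal axis) and with the Xist pattern as a covariate (vertical axis); the diagonal marks equal values and green squares are Ccnd2. The 2 brightest Ccnd2 probes drop from 0.57 and 0.61 to -0.06, and the third lies at 0.28 and 0.59.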

How the data were processed

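The deposited table held each probe's linear intensity, not corrected for background, and its detection p-value, per the file headers. The authors also deposited normalised log2 values; the submitters' processing notes name lumi, with no version, and its settings are not given in the sources. Probes were named from the platform annotation (34885 with 1 symbol, 18 with several), and all 10 members were found in RefSeq by Entrez identifier. The last 936 of 974 control rows were taken as negative controls, since they gave back the deposited detection p-values to within 0.00695. Per the file headers, that block numbers the arrays 4 to 6 in each group with the age tag P1, unlike the labels; the columns were used under the sample labels.

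Background was removed with limma's nec function (normal-exponential, negative controls, offset 16; limma 3.58.1, R 4.3.3), followed by quantile normalisation and log2. Probes with a detection p under 0.05 on at least 3 of 6 arrays (20632) were fitted by limma, two-sided, with Benjamini-Hochberg adjustment. A gene was represented by its brightest tested probe. The Xist pattern is whether the brightest Xist probe lies above the midpoint of its range, 6.92. The text names every member probe, up to 3 genes per pathway list with the smallest unadjusted p and the sex-linked genes. It also names the 5 genes nearest in profile to the member with the widest range. Tyms, Bglap, Bglap2, Col10a1, Ocstamp, Elane, Cdkn1b and the untested list genes are named outside that rule. Members and lists were chosen with earlier results of these data known. Alternatives were other background, scaling, filter, offset, variance and weight settings, the authors' values, a replicate block, the Xist pattern, the mean of a gene's probes and leaving out arrays. In simulated data with 20632 probes, errors were normal and independent, and 200 probes were changed 1.5-, 2-, 3- or 4-fold. Of probes changed 1.5-fold 14.0% were recovered, and of those changed 2-fold 55.8%, with 5.45 false calls per run. The simulation has no division within the TG group, so these rates are not the power of this comparison. The number of arrays limits the precision.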

Additional observations from a re-analysis of the deposited data

How the results depend on the processing

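Leaving out single arrays gave 0 to 2 probes with an adjusted p under 0.05 over all probes; the 2, Xist and Kdm5d, passed without TG replicate 1. No other alternative called a probe. Without a filter on dim probes, 1782 probes had an unadjusted p under 0.05 against 712, among 45281 probes. No member probe passed under any alternative, and of 387 member values 350 kept their sign. The Xist pattern as a covariate and the low-Xist arrays only give the same log2 fold changes by construction, and both are counted among the 387. Under either, values turned to -0.064 and -0.056 for the 2 brightest Ccnd2 probes, -0.046 for the brightest Ccnd3 probe and 0.131 for the dimmer Cdk4 probe. They turned to -0.005 for Cdk6, and to -0.032 and -0.204 for the brightest and dimmest Cdk2 probes. The mean of a gene's probes turned Ccnd1 to -0.077 and Cdk2 to -0.065, and median scaling and cyclic loess turned the middle Ccnd3 probe and the brightest Cdk2 probe to 0.00. On leaving out 1 array, values of the brightest probes ranged from -0.040 to 0.114 for Ccnd1, 0.285 to 0.886 for Ccnd2, -0.022 to 0.157 for Ccnd3, -0.030 to 0.205 for Ccne1, -0.075 to 0.003 for Ccne2, -0.057 to 0.064 for Cdk2, 0.126 to 0.323 for Cdk6, -0.233 to 0.038 for E2f3 and -0.129 to -0.059 for E2f5. The middle and dimmest Ccnd3 probes ranged from -0.245 to 0.107 and -0.056 to 0.188, the dimmest tested Ccnd2 probe from 0.101 to 0.482, the dimmer Cdk4 probe from -0.185 to 0.118 and the dimmest Cdk2 probe from -0.038 to 0.168. The cause of these turns was not tested. Whether the replicate numbers of the labels pair the samples cannot be decided from 3 arrays per group (correlations of deviations 0.262, 0.15 and -0.169). With the replicate block 0 probes passed and 791 had an unadjusted p under 0.05. The 3 tested probes with a mean log2 level under 6 (the dimmest Ccnd3 probe, Cdk6 and the dimmer tested E2f3 probe) rest on small differences above the negative controls.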
